A study of Danio rerio with 12 samples.

Results

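The nuclear genes that encode subunits of the oxidative phosphorylation machinery were followed in extraocular muscle (EOM, the small muscles that move the eye) and in trunk muscle of adult zebrafish with and without desmin, the intermediate filament protein that ties muscle fibrils and mitochondria into place. The genes were chosen by symbol alone, from the ndufa, ndufb, ndufc, ndufs, ndufv, uqcr, atp5, cox4, cox5, cox6, cox7 and cox8 families together with cyc1 and the 4 sdh symbols, and without the ndufaf assembly factors and the ATP synthase inhibitor atp5if1. This gave 95 of the 32520 genes in the count files, with 42 for complex I, 5 for complex II, 9 for complex III, 21 for complex IV and 18 for complex V. Poly-A RNA was sequenced from 4 groups of 3 libraries each, all from fish of the AB strain aged 5 months. Mutant EOM and mutant trunk came from the double mutant desma-/-;desmb-/-, and WT EOM and WT trunk from fish of the line in which that mutant was made. The labels give the cells as myofibres, but the libraries were made from dissected muscle. They do not say whether a library held 1 fish or several, so the p-values below measure the spread between these libraries.

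Complex I (NADH dehydrogenase) and complex II (succinate dehydrogenase) feed electrons into the inner mitochondrial membrane, complex III (the cytochrome bc1 complex) passes them to cytochrome c, complex IV (cytochrome c oxidase) hands them to oxygen, and complex V (ATP synthase) uses the resulting proton gradient to make ATP. Most subunits are encoded in the nucleus and a small set in mitochondrial DNA, so the machinery needs both genomes. Complex IV differs from the others in having several nuclear subunits that come as paralogs with tissue-biased use in mammals, such as a heart and muscle form and a widespread or liver form of COX6A and COX7A. Mammalian EOM is known for fatigue resistance and a high mitochondrial content, and desmin-deficient mouse muscle is known for misplaced mitochondria.

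The libraries held 64544544 to 91115096 reads assigned to genes on the transcribed strand. Of the 2 genes that the name table lists as DES, ENSDARG00000058656 ranged in EOM from 18.2 to 26.2 CPM (read counts scaled to a common library size) in the mutant, against 509 to 1336 CPM in WT. In trunk it ranged from 36.7 to 62.7 CPM in the mutant, against 519 to 644 CPM in WT. Its log2 fold change was -5.26 in EOM (SE 0.66, edgeR adjusted p = 8.67e-05) and -3.68 in trunk (SE 0.30, edgeR adjusted p = 0.0316), and it passed in 14 of 15 alternatives in EOM and 8 of 14 in trunk. The other DES gene had 12 reads or fewer in any library and checked nothing. The tissue labels were met by the posterior Hox genes, whose summed level was at most 0.266 CPM in EOM and at least 74.3 CPM in trunk. Summed photoreceptor markers reached 36.8 to 82.2 CPM in EOM and 1.81 to 4.02 CPM in trunk, and their part in the differences between muscles was not tested.

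CPM values here were scaled with TMM, a trimmed mean that sets most genes to no change, on 1 scale for the 12 libraries. They are not corrected for transcript length, so each gene is compared only with itself across libraries. Of the 95 genes, 93 passed the filter on low counts and were tested in every comparison. The exceptions were ndufs1, which encodes the large iron-sulfur subunit of complex I but drew only 0 to 32 reads per library, and ndufa4l2b with at most 1 read. At the low end of what was tested, cox5b ENSDARG00000113254 had 13 to 162 reads per library and sdhd ENSDARG00000055712 had 32 to 160 reads. Some symbols cover several genes in the name table, and those genes are given with their identifier.

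In every complex the gene that drew the most reads was abundant in all 4 groups. For complex V this was atp5f1b, the catalytic beta subunit of ATP synthase, at 2182, 7356 and 2491 CPM in mutant EOM, 5314, 5520 and 2187 CPM in WT EOM, against 4619, 4323 and 4456 CPM in mutant trunk and 4230, 4315 and 5781 CPM in WT trunk. Its EOM libraries spread widely in either genotype and overlapped the trunk libraries. For complex IV it was cox4i1, the common form of subunit 4, at 2026, 1206 and 745 CPM in mutant EOM, 1996, 1655 and 1275 CPM in WT EOM, against 989, 2300 and 1054 CPM in mutant trunk and 949, 1117 and 1244 CPM in WT trunk. WT EOM lay above WT trunk for cox4i1, with little room between the lowest EOM and the highest trunk library.

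Among genes filed under complex I by symbol, ndufa4 drew the most reads. It is named for complex I, but in mammals its protein is known as a subunit of complex IV. Its values were 1711, 1356 and 524 CPM in mutant EOM, 1421, 1056 and 869 CPM in WT EOM, against 1707, 2519 and 1244 CPM in mutant trunk and 1077, 1234 and 1362 CPM in WT trunk. For complex II the leading gene was sdha, the flavoprotein that oxidises succinate, at 396, 938 and 455 CPM in mutant EOM, 554, 729 and 491 CPM in WT EOM, against 833, 677 and 721 CPM in mutant trunk and 552, 613 and 812 CPM in WT trunk. For complex III it was uqcrfs1, the Rieske iron-sulfur protein, at 784, 1067 and 423 CPM in mutant EOM, 1215, 821 and 463 CPM in WT EOM, against 1006, 1007 and 695 CPM in mutant trunk and 763, 736 and 958 CPM in WT trunk. In all 3 of these genes the groups overlapped.

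Most nuclear subunits moved together from library to library. Over the 91 genes with a mean of at least 1 CPM, the median log2 level relative to each gene's mean of the 12 libraries was 0.44, 0.31 and -1.25 in mutant EOM, 0.65, 0.02 and -0.56 in WT EOM, 0.34, 0.66 and -0.21 in mutant trunk and -0.22, -0.14 and 0.08 in WT trunk. The same median over all genes stayed between -0.05 and 0.05. Mutant EOM replicate 3 stood lowest, with 0% of the 91 genes above their own mean, and WT EOM replicate 3 followed with 3.3%. WT EOM replicate 1 stood at the other end with 94.5%. Mutant trunk replicate 2 had the same 94.5% and mutant trunk replicate 3 had 17.6%. The spread between replicates of a group was thus as wide as any difference between group centres, apart from WT trunk, whose 3 libraries lay close together. The third EOM library of both genotypes also had the most reads that fell in no gene. These were 9.24% in mutant EOM and 8.93% in WT EOM, against 4.43% to 6.1% in the other libraries. Mutant trunk replicate 2 had the fewest genes with a read (19402) and the most unmapped (14.82%) and multimapping reads (12.51%). Mutant EOM replicate 2 was near it in genes with a read (19431), against 21556 or more in the other libraries. The part of these measures in the subunit levels was not tested.

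**Figure D1:**
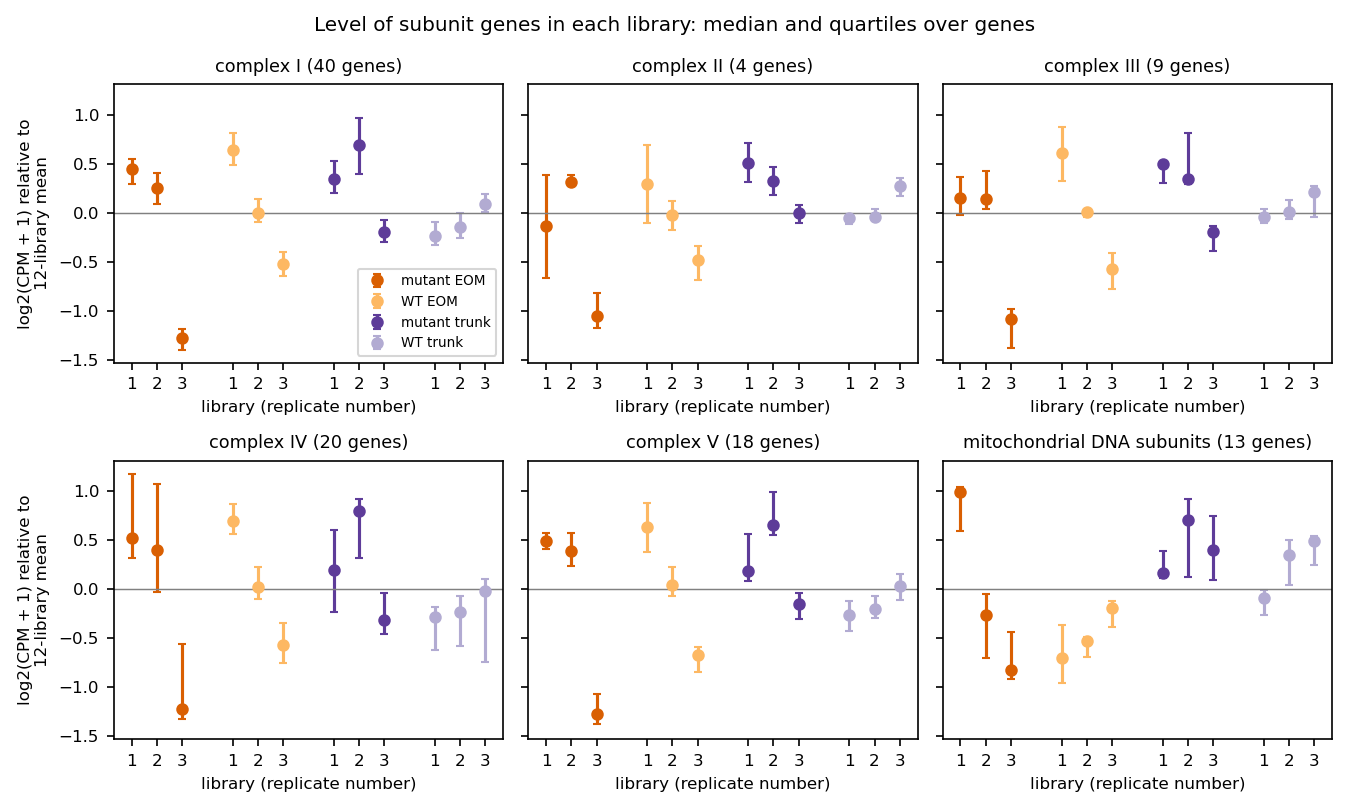
Level of the subunit genes in each of the 12 libraries, as log2(CPM + 1) relative to each gene's 12-library mean, for complexes I to V and for the 13 subunits encoded in mitochondrial DNA. Points are medians over genes and bars their quartiles. Mutant EOM replicate 3 is the lowest library in each of complexes I to V (medians -1.28, -1.05, -1.08, -1.22 and -1.27). Complexes II and III differ from the others in their highest library, and the mitochondrial DNA panel has another order.

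Complexes I, IV and V followed this profile most closely. In mutant EOM replicate 3 the medians were -1.28 for complex I, -1.05 for complex II, -1.08 for complex III, -1.22 for complex IV and -1.27 for complex V. In mutant trunk replicate 2 they were 0.69, 0.32, 0.34, 0.80 and 0.66 in the same order of complexes. Complex II, with 4 genes at this level, departed from the rest in mutant EOM replicate 1, at -0.14 against 0.45 for complex I, and its highest library was mutant trunk replicate 1 at 0.51. In complex III mutant trunk replicate 1 (0.50) also stood above mutant trunk replicate 2, and the highest library was WT EOM replicate 1 at 0.61. Subunits encoded in mitochondrial DNA had another order of libraries, with medians of 0.99, -0.26 and -0.82 in mutant EOM, -0.70, -0.53 and -0.19 in WT EOM, 0.17, 0.71 and 0.40 in mutant trunk and -0.09, 0.35 and 0.49 in WT trunk. WT EOM replicate 1, the highest EOM library for nuclear subunits, was the lowest WT EOM library for mitochondrial DNA subunits.

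The library scaling moved with this profile. TMM factors were 0.8875, 0.9875 and 1.804 in mutant EOM, 0.9506, 1.267 and 1.681 in WT EOM, 0.6386, 0.555 and 0.9221 in mutant trunk and 0.9997, 0.9934 and 0.963 in WT trunk, so the low EOM libraries had the high factors. With library totals alone the medians narrowed to 0.27, 0.29 and -0.41 in mutant EOM, 0.58, 0.36 and 0.19 in WT EOM, -0.29, -0.19 and -0.32 in mutant trunk and -0.22, -0.15 and 0.03 in WT trunk. The medians over all genes were then no longer near 0 in every library. They were -0.16, -0.05 and 0.69 in mutant EOM and -0.06, 0.30 and 0.61 in WT EOM. In trunk they were -0.47, -0.70 and -0.09 in the mutant and -0.04, -0.03 and -0.05 in WT. The third EOM library of both genotypes thus stayed below its all-gene median. As a plain share of the stranded reads, the 95 genes took 4.21%, 5.22% and 3.38% in mutant EOM, 5.99%, 5.36% and 4.33% in WT EOM, 3.57%, 3.48% and 3.48% in mutant trunk and 3.59%, 3.76% and 4.30% in WT trunk. By share, every WT EOM library was above every WT trunk library, though by only 4.33% against 4.30% at the nearest point. Every mutant trunk library was below every WT trunk library, by only 3.57% against 3.59% at the nearest point. Summed fast fibre markers also varied within mutant trunk, at 74450, 84710 and 27750 CPM, against 46200, 41120 and 27080 CPM in WT trunk. They were 24690, 18040 and 19440 CPM in mutant EOM and 34090, 25880 and 24210 CPM in WT EOM. Summed slow fibre markers were 4479, 9472 and 6167 CPM in mutant trunk and 3968, 5887 and 6749 CPM in WT trunk. In EOM the slow fibre sums were 3064, 2036 and 2238 CPM in the mutant and 3007, 2710 and 2804 CPM in WT. Genes within both lists went in opposite directions between muscles. In WT, 4 of 9 fast and 4 of 10 slow fibre genes were called higher in EOM (background 13.1%). Another 4 of each list were called lower (background 13.8%), so a sum does not stand for each gene of its list. In bulk tissue, fewer cells of a type and less RNA per cell cannot be told apart, and the part of fibre content in these levels was not tested.

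Between muscles in WT, the subunit genes that passed the test were all in complex IV, and no gene of the other complexes passed. At an adjusted p below 0.05 (edgeR quasi-likelihood test, Benjamini-Hochberg over all 18981 genes tested), 6 of the 93 genes were higher in WT EOM, where the background was 13.1% of all genes, and 1 was lower, where it was 13.8%. All 7 belong to complex IV, as 6 higher and 1 lower of its 21 tested genes. Over the 93 subunit genes the share called was below the background. Whether complex IV stands above the background was not tested. The higher genes were cox4i2, both cox7a2 genes, cox6b1, cox5b ENSDARG00000015978 and cox8a, and the lower gene was cox4i1l. The median log2 fold change over the 93 genes was 0.20, against 0.01 over all genes, with 68 positive and 25 negative values, where 50.7% of all genes were positive. By complex the median was 0.19 for I, -0.04 for II, 0.02 for III, 0.52 for IV and 0.26 for V.

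**Figure D2:**
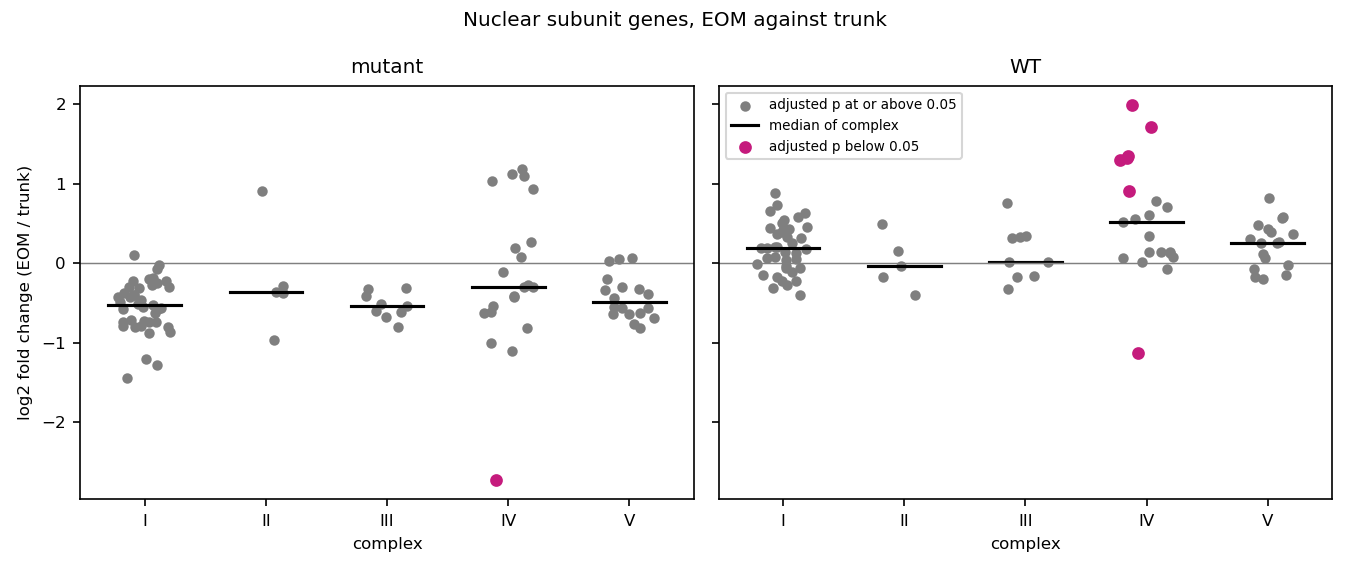
Log2 fold change of EOM over trunk for the 93 tested subunit genes by complex, in the double mutant and in WT. Each point is a gene, black lines are medians of a complex, and coloured points have an edgeR adjusted p below 0.05. All 7 called genes in WT and the 1 called gene in the mutant are in complex IV, and the median of each complex is lower in the mutant panel.

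Complex IV subunit 4 showed the tissue difference most plainly, because its genes went in opposite directions. The gene cox4i2 encodes a form of subunit 4 that in mammals is known from lung and for its response to oxygen. It had 56.6, 41.7 and 16.3 CPM in mutant EOM, 45.1, 29.4 and 21.8 CPM in WT EOM, against 11.6, 27.3 and 9.0 CPM in mutant trunk and 8.56, 7.62 and 7.85 CPM in WT trunk. Every WT EOM library was above every WT trunk library, while the mutant groups overlapped. In WT the log2 fold change of EOM over trunk was 1.99 (SE 0.28, edgeR adjusted p = 0.000859), a 3.97-fold difference, and it passed the threshold in all 14 alternatives. In the mutant it was 1.12 (SE 0.55, edgeR adjusted p = 0.331).

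The gene cox4i1l, listed by name as similar to cox4i1, ran the other way. It had 50.1, 53.8 and 23.8 CPM in mutant EOM, 83.2, 51.5 and 48.1 CPM in WT EOM, against 213, 399 and 170 CPM in mutant trunk and 117, 122.6 and 155 CPM in WT trunk. In either genotype all EOM libraries lay below all trunk libraries. The log2 fold change of EOM over trunk was -2.73 in the mutant (SE 0.55, edgeR adjusted p = 0.00503) and -1.13 in WT (SE 0.28, edgeR adjusted p = 0.015). The adjusted p was 0.102 in the WT comparison when all 12 libraries were fitted together, and at most 0.0713 when a library was left out, the highest being without WT EOM replicate 2. Over its alternatives the mutant difference ran from -2.98 to -1.87, with a highest adjusted p of 0.0708 without mutant EOM replicate 1. The common form cox4i1 had log2 fold changes of -0.27 in the mutant and 0.56 in WT, and neither passed.

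Subunit 7A, in mammals a heart and muscle form (COX7A1) and a widespread form (COX7A2), was tested as 3 genes. The gene cox7a2 ENSDARG00000053217 had 205, 211 and 67.5 CPM in mutant EOM, 343, 155 and 82.6 CPM in WT EOM, against 91.1, 91.6 and 54.3 CPM in mutant trunk and 58.0, 69.6 and 48.1 CPM in WT trunk. All WT EOM libraries exceeded all WT trunk libraries, but WT EOM replicate 1 alone was more than the other WT EOM libraries together. In WT its log2 fold change of EOM over trunk was 1.71 (SE 0.46, edgeR adjusted p = 0.0218), and without WT EOM replicate 1 it was 1.02 with an adjusted p of 0.0589. It missed the threshold also without any of the 3 WT trunk libraries, with adjusted p of 0.0513 to 0.0836. In the mutant the value was 0.93 (SE 0.51, edgeR adjusted p = 0.408).

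The second cox7a2 gene, ENSDARG00000110700, had 19.2, 12.2 and 5.96 CPM in mutant EOM, 12.6, 9.17 and 5.86 CPM in WT EOM, against 9.06, 15.1 and 5.67 CPM in mutant trunk and 5.12, 3.93 and 5.62 CPM in WT trunk. Its WT difference was the weakest called, at a log2 fold change of 0.90 (SE 0.30, edgeR adjusted p = 0.0483), and it passed in 6 of 14 alternatives. The muscle form cox7a1 had 555, 501 and 176 CPM in mutant EOM, 823, 496 and 286 CPM in WT EOM, against 821, 994 and 466 CPM in mutant trunk and 467, 481 and 579 CPM in WT trunk. Its groups overlapped, with log2 fold changes of EOM over trunk of -1.0 in the mutant (SE 0.58, edgeR adjusted p = 0.439) and 0.06 in WT, where the sign turned in the limma-voom and replicate block fits. For cox7a2l, whose mammalian product is known for joining respiratory complexes into supercomplexes, the values were -0.42 in the mutant and 0.14 in WT, and neither passed.

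Subunits 5B, 6B and 8 each had a called gene too. The gene cox6b1, in mammals the common form of a subunit facing the intermembrane space, had 94.1, 76.5 and 30.1 CPM in mutant EOM, 38.3, 29.0 and 26 CPM in WT EOM, against 39.7, 68.4 and 45.9 CPM in mutant trunk and 12.7, 13.6 and 10.2 CPM in WT trunk. Its WT difference between muscles was 1.34 on the log2 scale (SE 0.23, edgeR adjusted p = 0.0025), or 2.53-fold, and it passed in all 14 alternatives. WT trunk stood below each other group in every library, and the mutant groups overlapped, with a log2 fold change of 0.26. In these muscles cox6b1 was the minor gene of subunit 6B. Its paralog cox6b2 had a mean of 1030 CPM in WT EOM and 806 CPM in WT trunk.

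The gene cox8a, in mammals the widespread form of the smallest subunit, had 125, 105.7 and 32.0 CPM in mutant EOM, 94.1, 78.1 and 44.0 CPM in WT EOM, against 34.0, 46.3 and 33.3 CPM in mutant trunk and 29.2, 28.9 and 29.4 CPM in WT trunk. Its log2 fold change of EOM over trunk was 1.1 in the mutant (SE 0.51, edgeR adjusted p = 0.29) and 1.29 in WT (SE 0.29, edgeR adjusted p = 0.00906). Its partner cox8b, the heart and muscle form in rodents, had values of -0.63 in the mutant and 0.52 in WT, and neither passed. The gene cox5b ENSDARG00000015978 had 65.6, 68.8 and 19.9 CPM in mutant EOM, 46.2, 32.1 and 19.4 CPM in WT EOM, against 21.3, 32.3 and 16.6 CPM in mutant trunk and 14.8, 13.3 and 10.8 CPM in WT trunk. Its log2 fold change was 1.03 in the mutant (SE 0.52, edgeR adjusted p = 0.345) and 1.32 in WT (SE 0.31, edgeR adjusted p = 0.0121). The cox8a and cox5b calls were lost when all 12 libraries were fitted together (adjusted p of 0.0702 and 0.0761), and the cox5b call also without WT trunk replicate 3 (adjusted p of 0.0549).

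**Figure D3:**
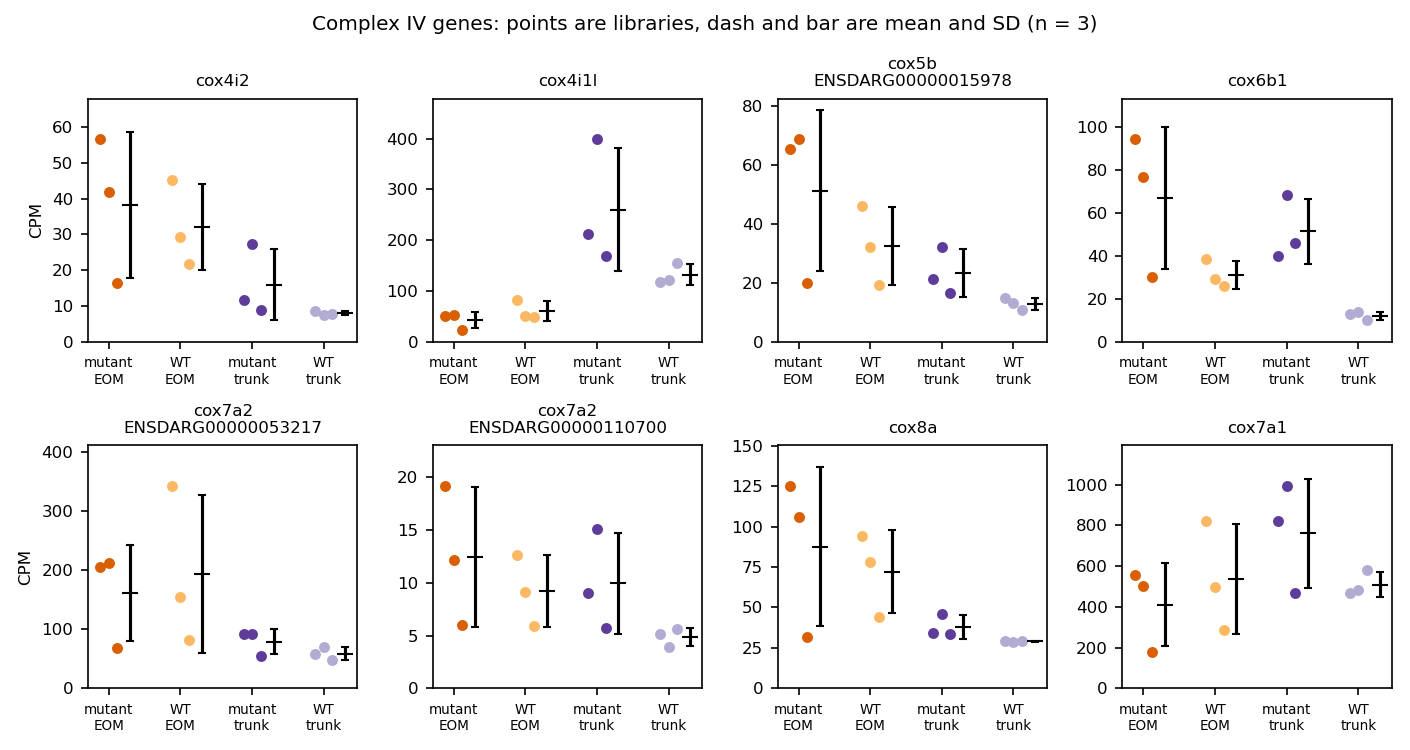
Level of 8 complex IV genes in CPM in the 4 groups. Points are libraries, and the dash and bar are the mean and SD (n = 3). WT EOM lies above WT trunk for 6 of them and below it for cox4i1l, while cox7a1 overlaps, and mutant EOM replicate 3 is the lowest mutant EOM point in every panel.

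Subunit 6A has 2 genes listed under the same symbol, cox6a1. ENSDARG00000022438 had 89.6, 69.1 and 21.6 CPM in mutant EOM, 49.6, 35.9 and 24.7 CPM in WT EOM, against 25.1, 24.2 and 24.7 CPM in mutant trunk and 24.7, 24.3 and 17.7 CPM in WT trunk. Its log2 fold change of EOM over trunk was 1.18 in the mutant (SE 0.50, edgeR adjusted p = 0.227) and 0.71 in WT (SE 0.28, edgeR adjusted p = 0.0879). For ENSDARG00000054588 the values were -1.11 in the mutant and 0.08 in WT, with overlapping groups. Of the other complex IV genes, cox5a, cox5aa, cox6b2, cox6c, cox7b, cox7c and the remaining cox5b genes had WT values between -0.08 and 0.78, and none passed.

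Complexes I, II, III and V held no called gene in either comparison between muscles. In WT, complex I values reached 0.88 for ndufb11, an accessory subunit of the membrane arm, with a smallest edgeR adjusted p of 0.167. Complex II ran from -0.40 to 0.49 with a smallest adjusted p of 0.211. Complex III ran from -0.33 for cyc1, cytochrome c1, to 0.76 for uqcrq, a small accessory subunit, with a smallest adjusted p of 0.225. Complex V ran from -0.20 to 0.82 with a smallest adjusted p of 0.191, and its highest value belonged to atp5mg, the g subunit of the membrane part.

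In the mutant the comparison of EOM with trunk called 0 genes higher, against a background of 3.37%, and 1 gene lower, cox4i1l, against 3.20%. The median log2 fold change over the 93 genes was -0.44, against -0.02 over all genes, and 13 of the values were positive and 80 negative, where 49.2% of all genes were positive. By complex the median was -0.52 for I, -0.36 for II, -0.54 for III, -0.30 for IV and -0.49 for V. Without mutant EOM replicate 3 the median was 0.02, with 48 positive and 45 negative values, and without mutant trunk replicate 2 it was -0.17. Leaving out mutant trunk replicate 3 gave -0.66.

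The comparison between muscles also depended on the scaling. With library totals alone the median of all genes moved to 0.86 in the mutant and 0.43 in WT, and that of the subunits to 0.31 in the mutant and 0.51 in WT. Relative to all genes, the subunits then stood at -0.54 in the mutant and 0.09 in WT, against -0.42 and 0.18 with TMM. The calls became 5 higher and 1 lower in the mutant, where 4.47% of all genes were then called higher and 1.0% lower. In WT they became 18 higher and 1 lower, where 18% of all genes were called higher and 4.67% lower. Of the 18, 8 were in complex IV. Leaving out WT EOM replicate 3, the lowest WT EOM library, gave 20 higher genes of 94 in WT, where 19.3% of all genes were then called higher. The WT median was 0.48 without WT EOM replicate 3, 0.13 without WT trunk replicate 1 and -0.17 without WT EOM replicate 1.

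The use of paralogs can be read without any scaling between libraries, as the share that each gene takes of the reads of its paralog group in the same library. These shares are of reads, not corrected for transcript length, and the groups were formed after the levels were seen. Reads that fit several genes were not counted, so near-identical paralogs can be undercounted. With 3 libraries against 3, the exact permutation test (2-sided) cannot give a p below 0.10, and each pair of groups without overlap below has that p. Counts of paralog groups with at least 1 such share have no background over all genes here. A paralog group with more genes also has more shares that can separate.

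Between EOM and trunk all 7 paralog groups of complex IV differed in share without overlap for at least 1 gene, in both genotypes. Among the 5 paralog groups of the other complexes this held for 0 in the mutant and 1, ndufab1, in WT. Without a background for these counts, nothing is read from the contrast between complex IV and the other complexes. In CPM, 0 of the 93 subunit genes lay higher without overlap in mutant EOM than in mutant trunk (background 12.4%) and 2 lay lower (background 10.9%). In WT 7 lay higher in EOM (background 22.5%) and 3 lower (background 22.4%). In subunit 4, cox4i1l took 2.35%, 4.13% and 3.03% of reads in mutant EOM and 17.5%, 14.6% and 13.8% in mutant trunk. In WT it took 3.92%, 2.97% and 3.57% in EOM and 10.9%, 9.83% and 11% in trunk. The share of cox4i2 was 2.65%, 3.21% and 2.08% in mutant EOM and 0.956%, 1.00% and 0.731% in mutant trunk, and 2.12%, 1.69% and 1.62% in WT EOM and 0.797%, 0.611% and 0.558% in WT trunk. Mutant EOM replicate 3, so low in CPM, was not set apart in these shares.

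In subunit 7A, cox7a1 took a smaller share in EOM and cox7a2 a larger one. The share of cox7a1 was 71.3%, 69.2% and 70.6% in mutant EOM and 89.1%, 90.3% and 88.6% in mutant trunk, and 69.8%, 75.1% and 76.4% in WT EOM and 88.1%, 86.7% and 91.5% in WT trunk. The share of cox7a2 ENSDARG00000053217 was 26.3%, 29.2% and 27.0% in mutant EOM and 9.90%, 8.32% and 10.3% in mutant trunk, and 29.1%, 23.5% and 22.1% in WT EOM and 11%, 12.6% and 7.60% in WT trunk. The muscle form thus held most reads of the group in every library, and its share was lower in EOM.

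The shares of cox8a, cox5b ENSDARG00000015978 and cox6a1 ENSDARG00000022438 were higher in EOM in both genotypes. For cox8a they averaged 14.5% ± 2.18 in mutant EOM and 5.56% ± 2.06 in mutant trunk, and 10.7% ± 2.89 in WT EOM and 5.86% ± 0.48 in WT trunk (SD, n = 3 each). For cox5b ENSDARG00000015978 they averaged 6.17% ± 1.65 in mutant EOM and 2.00% ± 0.282 in mutant trunk, and 3.83% ± 0.462 in WT EOM and 1.65% ± 0.431 in WT trunk. For cox6a1 ENSDARG00000022438 they averaged 6.16% ± 0.768 in mutant EOM and 1.54% ± 0.666 in mutant trunk, and 3.53% ± 0.735 in WT EOM and 2.18% ± 0.565 in WT trunk. In every library these 3 genes took the smaller part of the reads of their group.

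**Figure D4:**
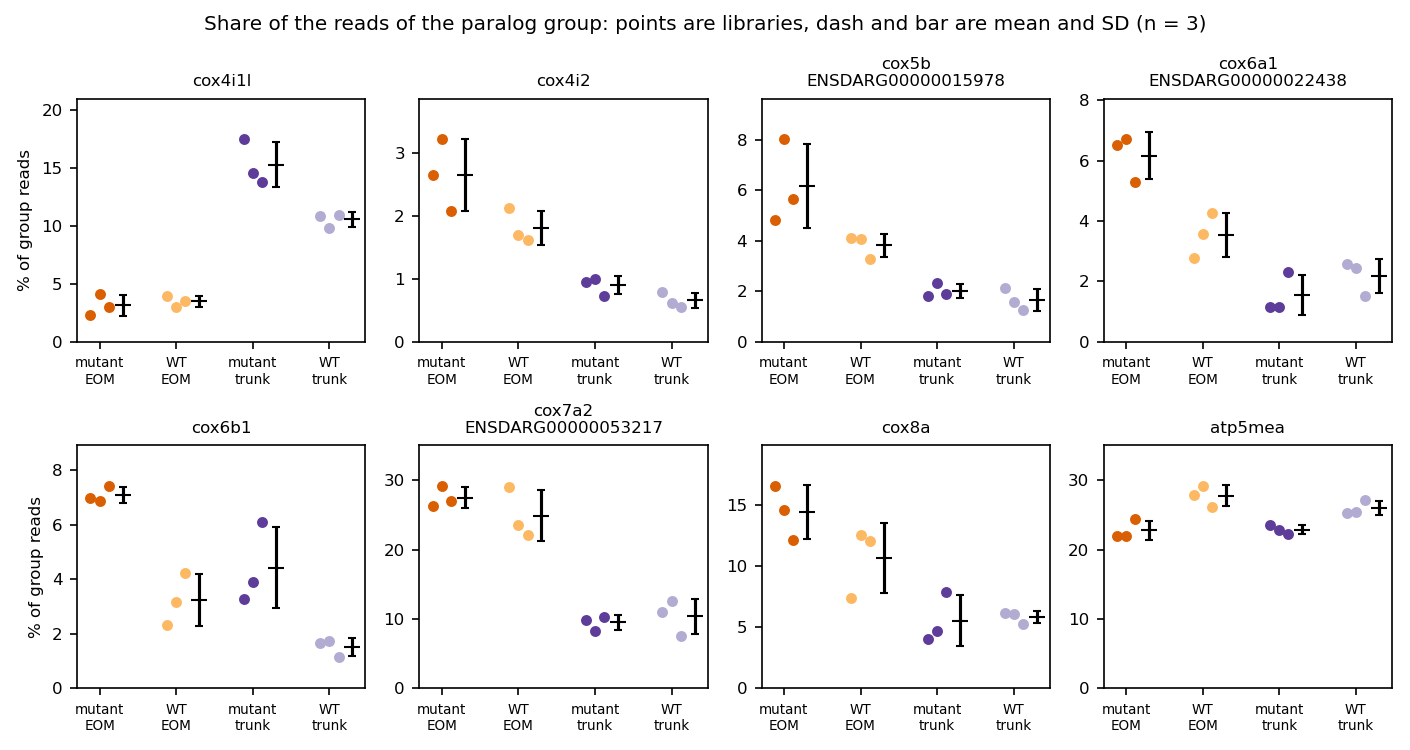
Share of 8 genes in the reads of their paralog group, in percent, in the 4 groups. Points are libraries, and the dash and bar are the mean and SD (n = 3). For the 7 complex IV genes the EOM and trunk points do not overlap within a genotype, and for cox6b1 and atp5mea the mutant and WT points do not overlap within a muscle.

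Loss of desmin gave no subunit gene past the threshold in EOM. Of the 93 genes 0 were called in either direction in mutant EOM against WT EOM, where the background was 0.303% of all genes, and 3 had an unadjusted p below 0.05 (background 5.37%). DESeq2 called 0 as well (background 0.292% higher and 0.372% lower), and so did limma-voom (background 0.0585% higher and 0.106% lower). The median log2 fold change was -0.18, against 0.03 over all genes, with 23 positive and 70 negative values, where 52.0% of all genes were positive. By complex the median was -0.21 for I, 0.01 for II, -0.26 for III, -0.16 for IV and -0.13 for V. The sign of this median rested on single libraries, since it was 0.16 without mutant EOM replicate 3, 0.22 without WT EOM replicate 1 and -0.46 without WT EOM replicate 3. Leaving out mutant EOM replicate 1 gave -0.42 and mutant EOM replicate 2 gave -0.35. Without the third library of both genotypes, a check chosen after the data were seen, it was -0.18, against -0.07 over all genes.

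The smallest p in mutant EOM belonged to ndufa4b, a paralog of ndufa4. It had 3.93, 3.73 and 2.07 CPM in mutant EOM and 12.5, 5.88 and 10.7 CPM in WT EOM. In trunk it had 9.20, 6.01 and 9.99 CPM in the mutant and 10.5, 15 and 7.77 CPM in WT. It was the only subunit gene of the 93 whose EOM libraries did not overlap, being lower in the mutant (background 6.93%), and 0 were without overlap and higher (background 4.04%). The log2 fold change was -1.59 in EOM (SE 0.46, edgeR adjusted p = 0.256) and -0.40 in trunk. With the replicate number as a block, a pairing taken from these data and not from the labels, the value in EOM was -1.57 (edgeR adjusted p = 0.000729).

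The block gave 1 further call, ndufa4l2, named here after its values were seen. Both calls were in the lower direction, where the block called 2.02% of all genes, so 2 of 93 is near that background. In mammals this paralog is known as a gene induced by low oxygen. It had 9.70, 2.02 and 5.53 CPM in mutant EOM and 20.9, 8.32 and 11.9 CPM in WT EOM, which overlapped because of mutant EOM replicate 1. The log2 fold change was -1.25 without the block (SE 0.51, edgeR adjusted p = 0.728) and -1.41 with it (edgeR adjusted p = 0.00249). In trunk its value was 0.31. The abundant ndufa4 had a log2 fold change of 0.09 in EOM.

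The other genes with the smallest p of their complex in EOM were far from the threshold. For complex IV this was cox6b1, at a log2 fold change of 1.09 (SE 0.47, edgeR adjusted p = 0.789), or 0.078 with the block. Its CPM overlapped through mutant EOM replicate 3, but its share of cox6b reads was 6.99%, 6.85% and 7.42% in mutant EOM against 2.33%, 3.16% and 4.21% in WT EOM, without overlap. For complex III it was uqcrh, the hinge protein of the bc1 complex, at -0.76, from 357, 269 and 121 CPM in mutant EOM and 684, 317 and 252 CPM in WT EOM. For complex II it was sdhd ENSDARG00000055712, at 0.74 and at most 2.36 CPM. For complex V it was atp5mea, subunit e of the membrane part, at -0.38, from 149, 119 and 40.6 CPM in mutant EOM and 194, 128 and 73.5 CPM in WT EOM. All 3 had an edgeR adjusted p of 0.999.

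In trunk most subunit genes had positive values in the mutant, but none passed the threshold. Of the 93 genes 0 were called in mutant trunk against WT trunk, where the background was 0.0333%, and 12 had an unadjusted p below 0.05 (background 13.1%). DESeq2 called 1 higher, cox6b1, where it called 2.23% of all genes higher. With limma-voom 0 were called (background 0% higher and 0.0166% lower). The median log2 fold change was 0.44, against -0.03 over all genes, and 88 values were positive and 5 negative, where 48.4% of all genes were positive. By complex the median was 0.44 for I, 0.22 for II, 0.26 for III, 0.46 for IV and 0.47 for V. In 11 genes all mutant libraries were above all WT libraries (background 12.6%) and in 0 below (background 14.2%).

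**Figure D5:**
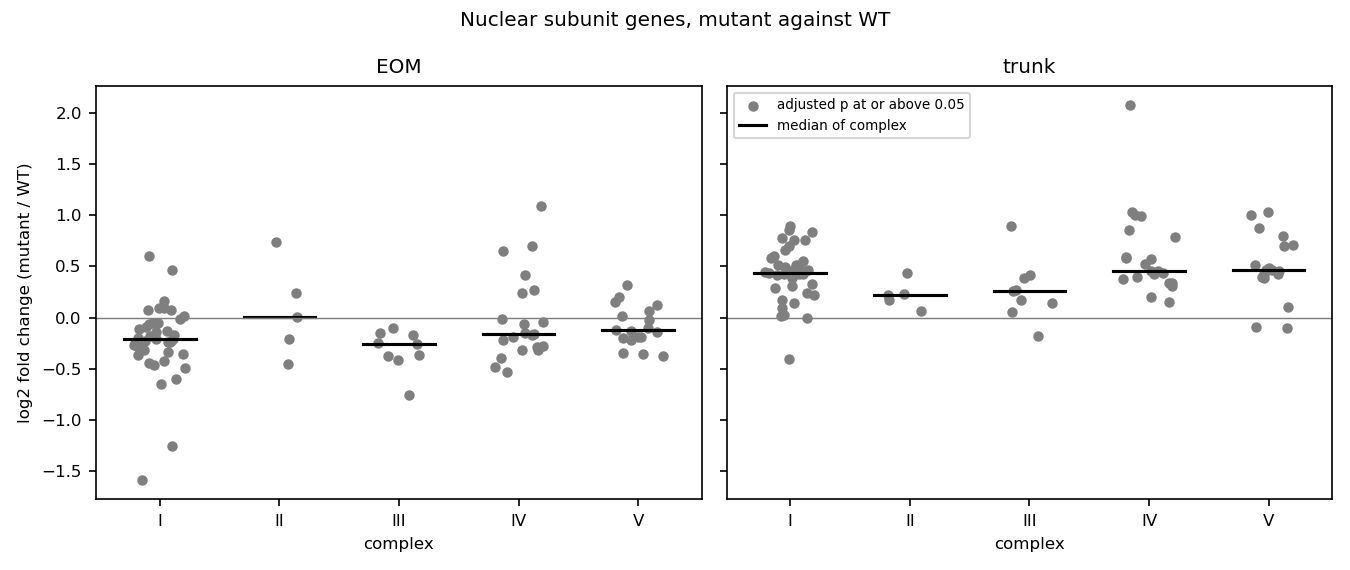
Log2 fold change of mutant over WT for the 93 tested subunit genes by complex, in EOM and in trunk. Each point is a gene and black lines are medians of a complex. No gene has an edgeR adjusted p below 0.05, most values are negative in EOM and positive in trunk, and the highest point in each panel is cox6b1.

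This direction depended on the scaling. With library totals alone the median of the subunits was -0.12 and that of all genes -0.50, so the subunits stood 0.38 above all genes, against 0.47 with TMM. The median without mutant trunk replicate 2 was 0.22, and without mutant trunk replicate 3 it was 0.64. Summed leukocyte markers were 299, 322 and 266 CPM in mutant trunk and 152, 157 and 135 CPM in WT trunk. They were 1342, 941 and 421 CPM in mutant EOM and 433, 350 and 319 CPM in WT EOM. Their part in the subunit values was not tested.

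The gene cox6b1 came nearest to the threshold in trunk. Its 39.7, 68.4 and 45.9 CPM in mutant trunk against 12.7, 13.6 and 10.2 CPM in WT trunk gave a log2 fold change of 2.08 (SE 0.27, edgeR adjusted p = 0.0626), or 4.24-fold. The groups did not overlap. Over 14 alternatives the value stayed between 1.55 and 2.25, with adjusted p from 8.06e-08 by DESeq2 to 0.437 without WT trunk replicate 2, and 4 passed. Its share of cox6b reads was 3.27%, 3.89% and 6.09% in mutant trunk against 1.66%, 1.73% and 1.13% in WT trunk. The share was thus higher in the mutant in both muscles, and higher in EOM in both genotypes.

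The genes with the smallest p of the other complexes had smaller values in trunk than cox6b1, and none passed. For complex V this was atp5meb, a subunit e gene, with 487, 739 and 303 CPM in mutant trunk and 223, 257 and 270 CPM in WT trunk, and a log2 fold change of 1.03 (SE 0.35, edgeR adjusted p = 0.326). For complex III it was uqcrq, with 647, 639 and 277 CPM in mutant trunk and 269, 248 and 318 CPM in WT trunk, and a value of 0.90 (edgeR adjusted p = 0.361). For complex I it was ndufs5, an accessory subunit, with 456, 375 and 215 CPM in mutant trunk and 177, 162 and 235 CPM in WT trunk, and a value of 0.86 (edgeR adjusted p = 0.345). Only atp5meb had no overlap among these, since mutant trunk replicate 3 lay within the WT range for the other genes. For complex II it was sdhb, the iron-sulfur subunit, with 592, 402 and 304 CPM in mutant trunk and 295, 280 and 376 CPM in WT trunk, and a value of 0.44 that turned to -0.08 with library totals alone.

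Within complex IV, cox4i1l had a log2 fold change of 0.99 in mutant trunk (SE 0.36, edgeR adjusted p = 0.336), with no overlap between genotypes. Its share of subunit 4 reads averaged 15.3% ± 1.97 in mutant trunk and 10.6% ± 0.659 in WT trunk (SD, n = 3 each), again without overlap. In EOM the value was -0.53 and the shares overlapped. The share of atp5mea among subunit e reads was 21.9%, 22% and 24.4% in mutant EOM against 27.9%, 29.2% and 26.2% in WT EOM, and 23.6%, 22.9% and 22.2% in mutant trunk against 25.3%, 25.5% and 27.1% in WT trunk. It was the lower in the mutant in both muscles, and atp5meb took the rest of the reads. Between genotypes at least 1 share differed without overlap in 4 of 7 paralog groups of complex IV in either muscle, and in 2 of 5 other groups in EOM and 3 of 5 in trunk. No background was formed for these counts, so nothing is read from them.

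Whether the effect of genotype differed between muscles was tested as an interaction over the 12 libraries. Of the 93 genes 0 were called, where the background was 0.00998%, and 3 had an unadjusted p below 0.05 (background 4.43%). DESeq2 called 0 (background 0.0249% higher and 0.0399% lower), and so did limma-voom (background 0% higher and 0.00499% lower). They had 2 and 3 genes at an unadjusted p below 0.05. The share over all genes was not formed for these 2 counts, so nothing is read from them. The median difference, EOM effect minus trunk effect, was -0.61 on the log2 scale, against 0.03 over all genes, with 7 positive and 86 negative values, where 51.6% of all genes were positive. With library totals alone it was -0.22 against 0.42 over all genes, and leaving out single libraries gave -0.89 to -0.23, the nearest to 0 without mutant EOM replicate 3. Without the third EOM library of both genotypes it was -0.53.

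The gene with the smallest interaction p was cox4i1l, at -1.50 (SE 0.57), made of -0.53 in EOM and 0.99 in trunk. In complex I, ndufa4l2 had -1.56 (SE 0.71), made of -1.25 in EOM and 0.31 in trunk. In complexes II, III and V the genes were sdhb at -0.89, uqcrq at -1.27 and atp5mea at -1.15. All 5 had an edgeR adjusted p of 0.934, and the difference between muscles was thus not shown for any subunit gene.

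The 13 subunits encoded in mitochondrial DNA had medians opposite in sign to the nuclear subunits between muscles in WT, between genotypes in EOM and in the interaction. The sign was the same between muscles in the mutant and between genotypes in trunk. Without WT EOM replicate 1 the nuclear median turned to -0.17 between muscles in WT and to 0.22 between genotypes in EOM. Without mutant EOM replicate 3 it turned to 0.16 between genotypes in EOM and to 0.02 between muscles in the mutant. In the interaction the mitochondrial DNA median was 0.33, with 11 positive and 2 negative values and 0 called, against -0.61 for the nuclear subunits. In WT EOM against WT trunk all 13 values were negative, with a median of -0.78, and 3 genes were called lower, where 13.8% of all genes were. The complex I subunit gene mt-nd5 had a log2 fold change of -1.62 (SE 0.45, edgeR adjusted p = 0.0243), from 1401, 1800 and 3462 CPM in WT EOM and 5095, 7440 and 7641 CPM in WT trunk. The others were mt-nd4l at -1.39 (edgeR adjusted p = 0.0321) and mt-atp8 at -2.11 (edgeR adjusted p = 0.0475), which overlap mt-nd4 and mt-atp6 in the vertebrate mitochondrial genome, so part of their reads could not be assigned. Under library totals 2 of the 13 values were positive and 0 genes were called, where 4.67% of all genes were called lower. The median over all genes was then 0.43. DESeq2 called 6 and the 12-library fit 1, where they called 16.3% and 4.52% of all genes lower. Of 14 alternatives mt-nd5 passed in 9, mt-nd4l in 8 and mt-atp8 in 5. All 3 calls were lost without WT EOM replicate 1 (-1.38, -1.09 and -1.61), WT EOM replicate 2, WT trunk replicate 2 or WT trunk replicate 3, and that of mt-atp8 also without WT trunk replicate 1. Without WT EOM replicate 3 the value of mt-atp8 was -3.37. In the mutant 11 of 13 were negative, with a median of -0.49 and 0 called. Under library totals 11 were positive with a median of 0.26, while the median over all genes was 0.86.

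Between genotypes the mitochondrial DNA subunits had a median of 0.69 in EOM, with 12 of 13 positive, while the nuclear subunits had -0.18. The EOM median was 0.34 with library totals alone, 0.36 with the replicate block and 0.41 with limma-voom. Over all genes these fits had medians of -0.06, -0.04 and -0.04. Of the mutant EOM libraries, replicate 1 lay above every WT EOM library in its median level and replicate 3 below every one. In trunk the medians were 0.20 for mitochondrial DNA and 0.44 for nuclear subunits, and 0 mitochondrial DNA genes were called in either muscle. Scaled by library totals, the mitochondrial DNA median in trunk was -0.32, with 11 of 13 negative. The median over all genes was then -0.50, against -0.03 with TMM. The difference between the gene sets was not tested. Poly-A selection captures mitochondrial transcripts by their short tails, so their counts also depend on that step.

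Of 46 assembly factors measured, which build the complexes but are not part of them, 0 were called between genotypes in trunk (background 0.0333%). In EOM 1 was called, where the background was 0.303%. This was taco1, in mammals the activator that lets mitochondria translate the complex IV subunit COX1. It had 0.398, 0.204 and 0.122 CPM in mutant EOM, 1.47, 2.23 and 4.03 CPM in WT EOM, against 0.120, 0.808 and 0.362 CPM in mutant trunk and 2.33, 2.73 and 2.06 CPM in WT trunk. All mutant libraries were below all WT libraries in both muscles. Its log2 fold change was -3.44 in EOM (SE 0.61, edgeR adjusted p = 0.00551) and -2.47 in trunk (SE 0.65, edgeR adjusted p = 0.248), on 7 to 446 reads per library. It passed in 11 of 15 alternatives in EOM and 2 of 14 in trunk. In the deposited gene order taco1 and ndufa4b lie 18 rows apart, on 1 chromosome in RefSeq. Of the genes between them, 7 of 12 tested had negative values in mutant EOM (median -0.12) and 9 of 11 in mutant trunk (median -0.53), and 0 were called. The part of this neighbourhood in the values of taco1 and ndufa4b was not tested.

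Between muscles 1 assembly factor was called higher (surf1) and 5 lower (acad9, foxred1, cox10, tmem70 and cox16) in WT EOM, both a smaller share of the 46 than the 13.1% and 13.8% of all genes. The complex IV assembly factor cox16 had 3.61, 3.44 and 3.34 CPM in mutant EOM, 4.60, 5.14 and 3.91 CPM in WT EOM, against 11.3, 18.5 and 9.83 CPM in mutant trunk and 7.91, 9.11 and 11.4 CPM in WT trunk. EOM was below trunk in every library of both genotypes. The log2 fold change was -2.04 in the mutant (SE 0.48, edgeR adjusted p = 0.014) and -1.07 in WT (SE 0.23, edgeR adjusted p = 0.00769). It passed in 10 of 14 alternatives in the mutant and in 13 of 14 in WT. On library totals 6 assembly factors were called higher and 0 lower in WT, where 18% of all genes were called higher.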

How the data were processed

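The authors deposited raw counts of reads per gene for each library in the layout of STAR. Per the submitters' processing notes STAR, DESeq2 and the build GRCz11 were used. Their versions and the annotation release are not given in the sources used here. The layout has 3 count columns, and the column of the transcribed strand held 96.43% to 97.26% of the strand-assigned reads and was used, since the labels name a stranded kit. Lines that name no gene were left out of library sizes and tests.

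Tests used edgeR 4.0.16 in R 4.3.3 (TMM, filterByExpr with minimum count 10 and minimum total 15, robust quasi-likelihood fits), fitted to the 6 libraries of each comparison or all 12 for the interaction, with Benjamini-Hochberg adjustment over all genes tested and a threshold of 0.05. DESeq2 1.42.0 and limma 3.58.1 were alternatives. The fits were tested on simulated data with 200 changed genes. Those data had the same dispersion for every gene and were not given the scaling differences seen between these libraries. The test therefore does not cover either of them. Gene symbols came from a name table supplied with the files, and no sequence was read, since no genome was used here.

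Members and lists were chosen with earlier results of these data known. Genes were named by a rule: in each comparison between muscles the largest called rise and fall per complex, in each other comparison the smallest p per complex among genes with a mean of at least 1 CPM, every cox4, cox6a, cox7a and cox8 gene, and the gene with the most reads per complex. Other called genes and those of related lists were named after their values were seen.

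Replicate numbers were taken as possible pairs of EOM libraries across genotypes. The correlations of their deviations from the group means were 0.288, 0.246 and 0.552, each over 0.1. Libraries with unlike numbers were not correlated for reference, so the pairing is not established. It comes from the data, not from the labels, and the block is only an alternative.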

Additional observations from a re-analysis of the deposited data

How the results depend on the processing

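Scaling, replicate pairing and single libraries moved the counts of called subunit genes. In mutant EOM against WT EOM the replicate block called 2 lower (background 2.02% of all genes). In trunk 1 gene was called higher without the low count filter (background 0.116%), with DESeq2 (2.23%) and with all 12 libraries in 1 fit (0.13%). Leaving out a library gave 0 to 1 (background 0% to 0.788%). In WT EOM against WT trunk, library totals alone called 18 higher (background 18%). The 12-library fit called 3 higher (background 5.3%) and 0 lower (4.52%). Leaving out a library gave 3 to 20 higher (background 7.07% to 19.3%) and 0 to 1 lower (8.51% to 20.2%). In mutant EOM against mutant trunk, library totals alone called 5 higher (background 4.47%) with a median of 0.31. DESeq2 and the 12-library fit each called 2 lower (background 4.65% and 5.54%). Leaving out a library gave 0 to 1 higher (background 1.44% to 4.36%) and 0 to 2 lower (1.28% to 4.22%). The causes were not tested.

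Values of uncalled genes that changed sign were sdhb in trunk (-0.08, library totals), cox6a1 ENSDARG00000054588 in WT (-0.04 with limma-voom, -0.06 with the block), cox7a1 in WT (-0.05 with limma-voom, -0.06 with the block), cox7a2l in WT (-0.02 with the block), and in the mutant comparison of muscles cox4i1 (0.59), cox7a2l (0.31) and cox8b (0.19) with library totals. With a library left out, atp5mea ran from -0.73 to 0.01 between genotypes in EOM. In WT, cox6a1 ENSDARG00000054588 ran from -0.42 to 0.42, cox7a2l from -0.44 to 0.45, cox7a1 from -0.39 to 0.38 and cox8b from -0.14 to 0.88. In the mutant comparison of muscles, cox7a2 ENSDARG00000110700 ran from -0.18 to 0.71, cox4i1 from -0.63 to 0.32 and cox7a2l from -0.63 to 0.02.

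In the other comparisons not every correlation of same-numbered libraries was over 0.1, so the numbers were not taken as pairs. They were -0.0954, 0.0566 and -0.00918 between genotypes in trunk, 0.0161, -0.0756 and -0.0799 between muscles in WT and -0.129, 0.141 and 0.402 in the mutant. There the block changed no count of called subunit genes by more than 1.5 times. At an unadjusted p below 0.05 it gave 3 genes in trunk, against 12, and 16 between muscles in the mutant, against 6. Over all genes the main fits gave 13.1% in trunk and 3011 of 18049 between muscles in the mutant. The share over all genes was not formed for the block, so nothing is read from these counts. Of the values of named genes under the alternatives, 658 kept their direction and side of the threshold, 18 gained and 56 lost a call, and 20 changed sign. The pooled SD between libraries of a group was 0.606 (log2) in the median of the subunits.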
